A study of Mus musculus with 2 samples.

Results

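A set of 9 genes for proteins at the surface of the red cell was measured in whole mouse liver at embryonic day 13.5: Slc4a1, Rhag, Rhd, Icam4, Cd47, Gypc, Kel, Ermap and Aqp1. They were chosen by name, as carriers of human blood group antigens or as partners of such carriers, with earlier results of these data known. All 9 of 9 were found by gene ID among the 43346 annotated genes of both libraries. The tissue was liver of B6NCrl embryos with both sexes pooled. The 2 biological replicates were separate tissue samples with 1 donor entry between them, so an SD here reflects only how these 2 samples differ. The series holds 1 group and no treatment, mutant or second age, so values are levels within the libraries and there was no condition to test.

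The surface proteins of the red cell sit in large complexes that carry gases and ions and tie the membrane to the spectrin skeleton beneath it. In the ankyrin complex, the anion exchanger Slc4a1 exchanges chloride for bicarbonate, and in human red cells it stands with the Rh proteins, with ICAM4 and with CD47. In the junctional complex, Gypc binds Epb41 and Mpp1. Kel, an endopeptidase, is joined by a disulfide bond to Xk. At this stage of gestation the liver is the main site of red cell production, and erythroblasts mature there around central macrophages in erythroblastic islands.

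The stretches just before the transcription starts are shown because GATA1 and KLF1, the factors that drive erythroid genes, bind short and common words, and the genes differed in which of these words they held. RefSeq promoter windows (GRCm38.p6) were given for 7 of the 9 genes. The words AGATAA and TGATAA, forms of the GATA word, and CACCC, the core of the KLF word, were searched on both strands of the 250 bases before each start. Of the 7 genes, 5 held a GATA word and CACCC together, namely Rhag, Rhd, Kel, Ermap and Icam4. Aqp1 and Cd47 held CACCC alone. The last 120 bases before the start of those 5 genes and of Aqp1 are printed 5′ to 3′ on the strand of the gene, with the matches in capitals. The Rhag stretch is chr17:40811029-40811148 (plus strand), that of Rhd is chr4:134864416-134864535 (plus) and that of Kel is chr6:41704326-41704445 (minus). The Ermap stretch is chr4:119189996-119190115 (minus), that of Icam4 is chr9:21029312-21029431 (plus) and that of Aqp1 is chr6:55336179-55336298 (plus).
Rhag: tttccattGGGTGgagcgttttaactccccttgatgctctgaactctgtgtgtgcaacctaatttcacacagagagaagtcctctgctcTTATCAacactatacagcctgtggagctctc
Rhd: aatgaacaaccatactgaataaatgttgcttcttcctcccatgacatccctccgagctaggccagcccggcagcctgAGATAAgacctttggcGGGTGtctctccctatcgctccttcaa
Kel: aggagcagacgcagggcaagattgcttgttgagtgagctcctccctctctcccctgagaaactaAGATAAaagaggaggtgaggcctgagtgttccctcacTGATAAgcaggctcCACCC
Ermap: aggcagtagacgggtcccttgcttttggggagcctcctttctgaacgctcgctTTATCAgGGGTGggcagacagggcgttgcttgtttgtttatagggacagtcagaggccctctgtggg
Icam4: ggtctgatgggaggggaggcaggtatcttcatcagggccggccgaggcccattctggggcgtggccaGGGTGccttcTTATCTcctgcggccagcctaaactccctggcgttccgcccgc
Aqp1: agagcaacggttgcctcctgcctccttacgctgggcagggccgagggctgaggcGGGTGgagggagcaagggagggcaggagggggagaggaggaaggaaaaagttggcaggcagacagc

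In the Rhd stretch the first base of AGATAA lay 43 bases before the start, with CACCC on the opposite strand at 27. Kel held AGATAA at 56, TGATAA at 19 and CACCC at 5 bases before its start, and was the only one of the 6 printed stretches with 2 GATA words. In Ermap the opposite strand carried TGATAA at 67 and CACCC at 60, a spacing of a single base between the matches as printed. Icam4 and Rhag also carried their words on the opposite strand, with AGATAA at 43 and CACCC at 53 in Icam4, and TGATAA at 31 and CACCC at 112 in Rhag. Both words are common: at least 1 window of 18.8% of the 27025 genes in the table held a GATA word, 54.5% held CACCC and 8.17% held both, counted per gene. Among 849 genes with a window and at least 100 TPM in both libraries, 13.5% held a GATA word and 7.18% held both. Among the 21 other blood group proteins with a window, 4 held a GATA word, 19 held CACCC and 1 held both. Of the 6 erythroid marker genes, 6 held CACCC and 4 held both, so CACCC was also usual in these lists. The 7 genes are too few for a share to be precise. A match gives the letters only and is not a bound site, and a missing word says only that these letters are not in the window. The RefSeq starts of Kel, Ermap, Rhag and Icam4 lay 14, 16, 23 and 59 bases inside the gene as annotated by GENCODE, and the starts of Rhd coincided. Both words of Icam4 and the CACCC of Kel thus fell within the GENCODE gene and not before it. The RefSeq start of Aqp1 lay 133 bases before the GENCODE start, so its window need not belong to the transcript that was counted. The starts of the 2 Cd47 windows lay 55121 and 55128 bases from the start of the GENCODE gene, inside the gene, at or near an annotated transcript start.

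All 9 genes were expressed, and all but Aqp1 were among the abundant transcripts of the tissue. Levels are given as TPM, a share of the transcripts in a library that corrects for their length. All 9 reached 1 TPM in both libraries, a level that 28.1% of all annotated genes reached, and 8 of 9 reached 100 TPM in both, against 2.61% of all genes. Because the 9 were picked with earlier results of these data known, these shares are a description. Their median was 224.5 ± 12.2 TPM (SD, n = 2), and the median of all annotated genes was 0.01 TPM. Together they made up 0.267% ± 0.0189 of the TPM of annotated genes. The plot of the 9 levels shows that the libraries lay close together beside the distances between most genes. In whole tissue, fewer cells of a type and less RNA per cell cannot be told apart.

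**Figure D1:**
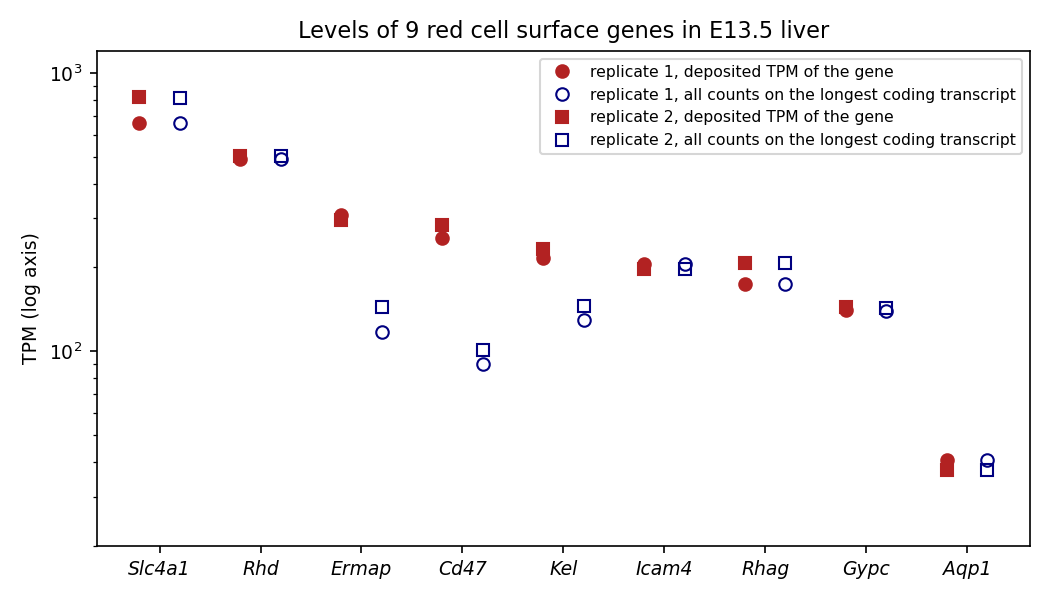
Level of each of the 9 genes in TPM (log axis) in the 2 libraries, as deposited (filled) and with all counts placed on the longest coding transcript (open). Slc4a1 was highest on both scales and Aqp1 lowest, and Ermap, Cd47 and Kel moved down when all counts were placed on the longest coding transcript.

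Slc4a1, the anion exchanger, was the most abundant of the 9. The gene (ENSMUSG00000006574.11, chromosome 11, 102348824 to 102366203, minus strand, GRCm38) had 660.5 TPM in replicate 1 and 818 TPM in replicate 2, from 110892 and 123197 expected counts. It ranked 116 among all annotated genes by mean TPM. Its 2 libraries differed more in TPM than those of any other of the 9, with an SD of 111 TPM around 739.

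The Rh complex is a trimer in which Rhag, related to ammonium transporters, joins the Rh protein. Rhd, the mouse counterpart of the human RHD and RHCE genes (ENSMUSG00000028825.7, chromosome 4, 134864536 to 134896172, plus strand), had 491 and 502 TPM in replicates 1 and 2 and ranked 219. Rhag (ENSMUSG00000023926.7, chromosome 17, 40811126 to 40840754, plus strand) had 175 and 207 TPM and ranked 608. Rhd stood above Rhag in both libraries, by 2.81-fold in replicate 1 and 2.43-fold in replicate 2, a mean of 2.62-fold ± 0.269 (SD, n = 2).

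Icam4 is a small adhesion protein that in human red cells carries the LW antigen and binds integrins, and it takes part in contacts within erythroblastic islands. It had 205 and 197 TPM (ENSMUSG00000001014.5, chromosome 9, 21029373 to 21030595, plus strand) and ranked 576. Cd47 marks cells as self by engaging SIRPα on macrophages, which spares red cells from being eaten. It had 256 and 283 TPM (ENSMUSG00000055447.14, chromosome 16, 49800533 to 49915010, plus strand) and ranked 417. The expected counts of Icam4 (6277 and 5404) and Cd47 (17637 and 17707) carried a posterior SD, the authors' measure of how surely reads were assigned, of 18.7 to 51.3 counts. In the other 7 genes that SD was below 1 count. Icam4 overlaps the antisense gene Gm47079, and how strand was used in counting is not known here, so reads of the pair may be mixed.

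Gypc, a small sialoglycoprotein that carries the Gerbich antigens in human, had 140.2 TPM in replicate 1 and 144 TPM in replicate 2, the smallest relative spread but one among the 9. The gene lies on chromosome 18 (ENSMUSG00000090523.2, 32528322 to 32560034, minus strand) and ranked 821. Kel, a zinc endopeptidase, had 216 and 233 TPM (ENSMUSG00000029866.9, chromosome 6, 41686330 to 41704339, minus strand) and ranked 515. The annotated gene Gm37527 overlaps Kel on the same strand.

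Ermap, a protein of the butyrophilin type that carries the Scianna antigens in human, had 308 TPM in replicate 1 and 295 TPM in replicate 2 (ENSMUSG00000028644.12, chromosome 4, 119175457 to 119190011, minus strand) and ranked 368. Aqp1, the water channel that carries the Colton antigens in human, had 40.6 and 37.3 TPM (ENSMUSG00000004655.5, chromosome 6, 55336432 to 55348555, plus strand). It ranked 2769, still above 93.6% of annotated genes. Aqp1 was thus the single gene of the 9 below 100 TPM, and its 2 values lay well below those of the next gene, Gypc, by 1.87 ± 0.11 on the log2 TPM scale.

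From the highest mean TPM to the lowest, the order was Slc4a1, Rhd, Ermap, Cd47, Kel, Icam4, Rhag, Gypc and Aqp1. The values of Icam4 and Rhag overlapped between the libraries, with Icam4 higher in replicate 1 and Rhag higher in replicate 2, so this pair has no order. All other neighbours kept apart in both libraries, although Ermap led Cd47 by only 0.16 ± 0.15 and Kel led Icam4 by 0.16 ± 0.12 on the log2 TPM scale. The middle of this order depended on how reads were divided among transcripts.

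For 6 of the 9 genes a single transcript held at least 80% of the TPM of the gene in both libraries. The transcript with the highest TPM was the same in both libraries for 9 of 9 genes. Rhag, Aqp1 and Icam4 have 1 annotated transcript each, so both counts were fixed in advance for them. No share over all genes stands beside these counts, so neither is read as a trait of the 9 genes. Slc4a1-201 held 99.6% ± 0.0791 of Slc4a1, and Rhd-201 held 99.8% ± 0.018 of Rhd (SD, n = 2). Gypc-203 held 94.7% of Gypc TPM in replicate 1 and 92.9% in replicate 2, and the slightly shorter coding transcript Gypc-202 held 5.26% and 7.03%.

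Kel, Ermap and Cd47 were split, and their split changed with the quantity used. Kel-201, the full coding transcript of 2530 nt, held 55.4% ± 1.99 of Kel TPM but 90.6% ± 0.542 of Kel counts. The difference went to short transcripts, since Kel-202, a processed transcript of 422 nt, held 21.0% ± 3.90 of the TPM on 4.58% of the counts. Kel-203 and Kel-205, of 384 and 322 nt, held 10.9% and 10.5% of the TPM. In replicate 1, for example, 627 counts on Kel-202 gave 51.3 TPM, and 10731 counts on Kel-201 gave 117 TPM.

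Ermap was the most divided, over 9 annotated transcripts. Ermap-206, of 4551 nt, held 25.7% and 36.0% of Ermap TPM in replicates 1 and 2, yet 70.8% ± 4.27 of the counts. Its short coding transcript Ermap-204, of 606 nt, held 20.6% of TPM in replicate 1 and 8.19% in replicate 2, the largest spread between libraries of any transcript shown. Ermap-202, Ermap-207 (annotated for nonsense-mediated decay) and Ermap-209 held 19.1% ± 2.75, 16.7% ± 1.10 and 11.7% ± 1.65. Ermap therefore had the higher TPM in replicate 1 but the higher expected count in replicate 2 (19669 in replicate 1, 21780 in replicate 2).

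In Cd47 the leading transcript itself depended on the quantity. Cd47-202, listed at 867 nt in the files, held 75.9% ± 0.238 of the TPM and 31.9% of the counts, whereas Cd47-201, of 5277 nt, held 24.1% of the TPM and 68.1% ± 0.283 of the counts. Both libraries gave nearly the same division. The plot of transcript shares shows the change from TPM to counts for the genes that had more than 1 transcript above 5%.

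**Figure D2:**
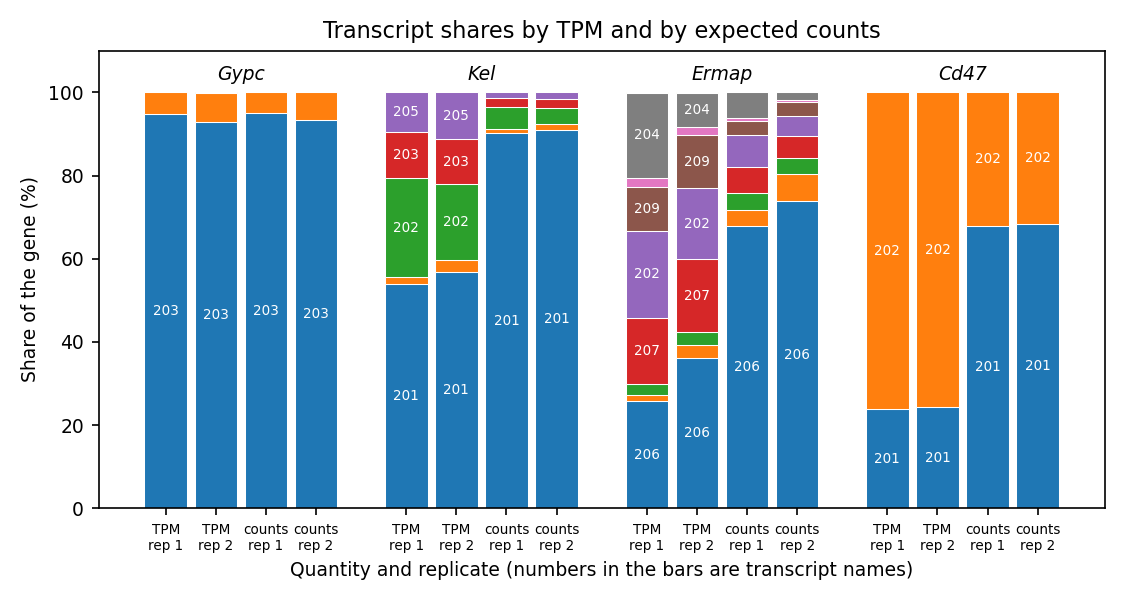
Share of each annotated transcript (%) in the TPM and in the expected counts of Gypc, Kel, Ermap and Cd47 in each library, drawn from the longest transcript at the bottom to the shortest at the top. The longest transcript of Kel, Ermap and Cd47 holds more of the counts than of the TPM, and Gypc-203 leads on both.

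A second scale, added after these shares were seen, placed all counts of a gene on its longest annotated coding transcript. On it Ermap had 117 and 144 TPM, Cd47 had 89.9 and 101 TPM, and Kel had 129 and 146 TPM. The deposited gene TPM was 2.31 times this value for Ermap, 2.83 times for Cd47 and 1.64 times for Kel, and at most 1.004 times for the other 6. The order became Slc4a1, Rhd, Icam4, Rhag, Gypc, Kel, Ermap, Cd47 and Aqp1. Icam4 and Rhag, Gypc and Kel, and Kel and Ermap overlapped between libraries. The top pair and the lowest gene thus stood on both scales, while Ermap moved from place 3 to place 7 and Cd47 from place 4 to place 8.

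Levels of proteins known to bind each other were compared within each library. Slc4a1 and Gypc, the anchors of the ankyrin and the junctional complex, differed 5.20-fold ± 0.697 in TPM (SD, n = 2). Its skeleton partners were lower: Slc4a1 stood 5.66-fold ± 0.238 above Epb42 (120.3 and 140.4 TPM) and 20.7-fold ± 1.36 above ankyrin, Ank1 (33.4 and 37.7 TPM). Placing counts on the longest coding transcript raised these ratios to 9.28-fold and 28.1-fold.

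Gypc stood nearer to its partners. It was 1.48-fold ± 0.0578 above Mpp1 (92.2 and 99.8 TPM), the scaffold protein of its complex. Epb41, which links Gypc to spectrin and actin, had 131 and 171 TPM. The log2 TPM ratio of Gypc over Epb41 was 0.10 in replicate 1 and -0.25 in replicate 2, so these genes were not separated, and with counts on the longest coding transcript it was 0.72 ± 0.26.

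Kel exceeded Xk, the transporter-like protein it is bound to, by 11.5-fold ± 2.39, with 16.4 and 23.8 TPM for Xk. On the longest coding transcript the ratio was 6.95-fold. Cd47 stood 15.5-fold ± 0.0802 above Sirpa, its receptor on macrophages (16.4 and 18.3 TPM), and 6.86-fold above it on the longest coding transcript. Thbs1, a secreted ligand of Cd47, had 27.1 and 37.5 TPM. The receptor sits on other cells than the red cells, so this ratio compares cell populations as well as genes.

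Icam4 binds integrins of several kinds, and all 8 of 8 listed integrin genes reached 1 TPM in each library. Their median was 15.7 ± 2.80 TPM. Itgb1 was the highest, with 73.3 and 91.3 TPM, and Itga4, which pairs with it, had 22.4 and 26.9 TPM. Itga2b, a platelet integrin chain that also marks megakaryocytes, had 41.5 and 38.02 TPM. Each of these was below Icam4 in both libraries.

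Within the gene families compared here, the surface genes had the highest deposited TPM, most of them by about an order of magnitude. The folds below use deposited TPM only, a scale on which Ermap and Kel stood higher than on the longest coding transcript. Gypc and Cd47 were not part of this comparison. Slc4a1 held 98.2% ± 0.153 of the TPM of the SLC4 family of 10 genes and stood 85.0-fold ± 3.20 above the next, Slc4a2 (7.98 and 9.37 TPM). Of the other 9 family genes, Slc4a2 and Slc4a7 (2.05 and 2.36 TPM) reached 1 TPM in both libraries. Slc4a4, Slc4a5, Slc4a8, Slc4a9, Slc4a10 and Slc4a11 were below 1 TPM in both, between 0.02 and 0.79 TPM, and Slc4a3 had 1.05 TPM in replicate 1 and 0.87 TPM in replicate 2.

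Rhd and Rhag held 98.0% ± 0.125 of the TPM of the Rh family. Rhag, the lower of the pair, was 13.9-fold ± 1.88 above Rhbg (13.9 and 13.6 TPM), an ammonium transporter of other epithelia. Rhcg had 0.08 TPM in replicate 1, from 6 counts, and none in replicate 2. Icam4 held 88.9% ± 0.549 of the ICAM family, with Icam2, the endothelial form, next at 16.6 and 17.3 TPM. Icam1 had 7.79 and 7.92 TPM and Icam5 0.18 and 0.25 TPM.

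Ermap held 95.9% ± 0.513 of the 9 butyrophilin genes and was 28.3-fold ± 3.40 above Btnl10 (10.0 and 11.4 TPM). Btn1a1 followed with 1.14 and 1.65 TPM. The other 6, Btnl9, Btnl2, Btn2a2, Btnl4, Btnl1 and Btnl6, were below 1 TPM in both libraries, and Btnl1 and Btnl6 had no count. Kel held 86.6% ± 0.730 of the M13 peptidases and was 11.0-fold ± 1.40 above Ece2 (21.7 and 19.5 TPM), an endothelin-converting enzyme. Ece1 had 11.0 and 12.7 TPM, and Mme, Phex and Ecel1 were at or below 0.20 TPM. In expected counts Ece1 and not Ece2 came next to Kel, with 1316 and 1534 against 11890 and 12032. By expected counts, which are not corrected for length, the surface genes held 98.3% of the SLC4 family, 97.8% of the Rh family, 93.8% of the butyrophilins, 83.3% of the M13 peptidases and 81.4% of the ICAM family.

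Aqp1 led its family by less. It held 50.2% ± 1.58 of the TPM of 11 aquaporins, or 60.9% of their counts, and was 2.82-fold ± 0.15 above Aqp11 (13.9 and 13.8 TPM). Aqp3, which carries the GIL antigen in human, had 12.4 and 13.2 TPM, and Aqp9, a channel of hepatocytes, had 8.34 and 7.44 TPM. Aqp4 and Aqp5 were at or below 0.16 TPM. Aqp2, Aqp6 and Aqp12 had no count, which allows at most 0.0892 TPM for the shortest of them in replicate 2. The plot of the 6 families shows the gap under each of the surface genes.

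**Figure D3:**
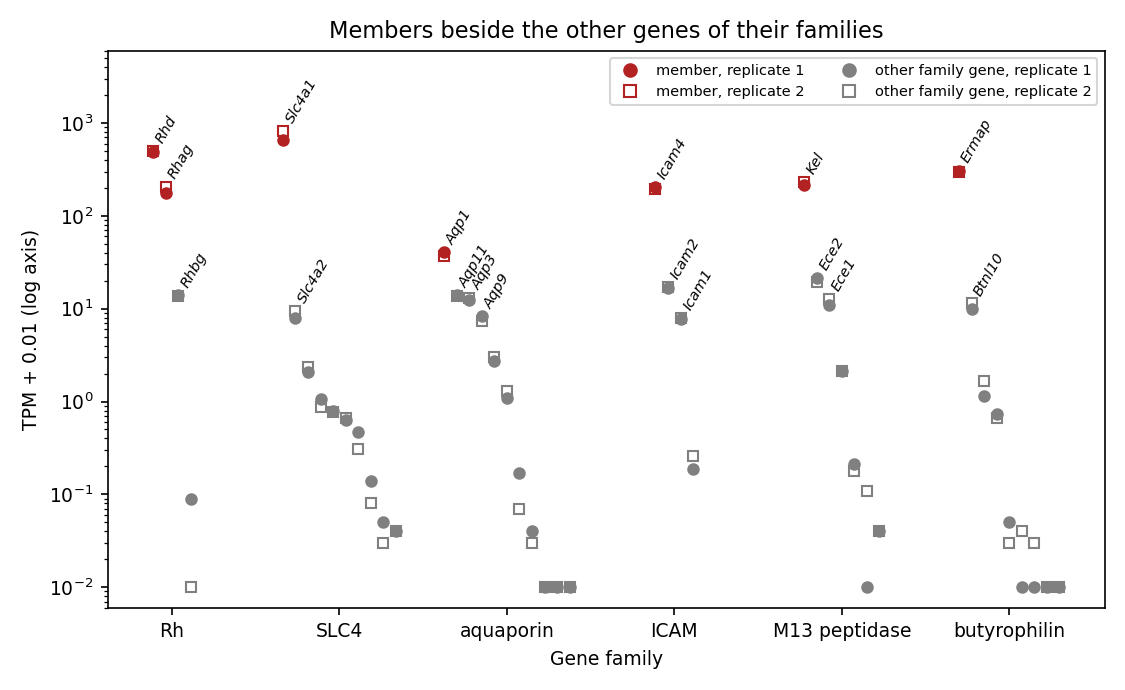
TPM plus 0.01 (log axis) of every measured gene of 6 families in both libraries, with the surface genes in red and the other family genes in grey, ordered within a family from high to low mean. The surface genes are the highest of each family, and the gap to the next gene is smallest for Aqp1.

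The other carriers of human blood groups were mostly expressed, at lower levels. Of 25 such proteins measured, 24 reached 1 TPM in both libraries and 5 reached 100 TPM in both, at a median of 27.4 ± 2.15 TPM, against 8 of 9 at 100 TPM and a median of 224.5 ± 12.2 TPM for the 9 surface genes. Bsg (813 and 847 TPM), the chaperone of monocarboxylate transporters, exceeded each of the 9 genes in both libraries. Smim1, the carrier of the Vel antigen in human, had 357 and 291 TPM. Slc29a1, a nucleoside transporter, and Abcg2, a porphyrin and urate exporter, had 194 and 208 TPM and 173 and 201 TPM. Sema7a had no count, which allows at most 0.0276 TPM in replicate 2. The 9 genes and this list were both picked with earlier results of these data known, so the difference between their medians is a description.

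**Figure D4:**
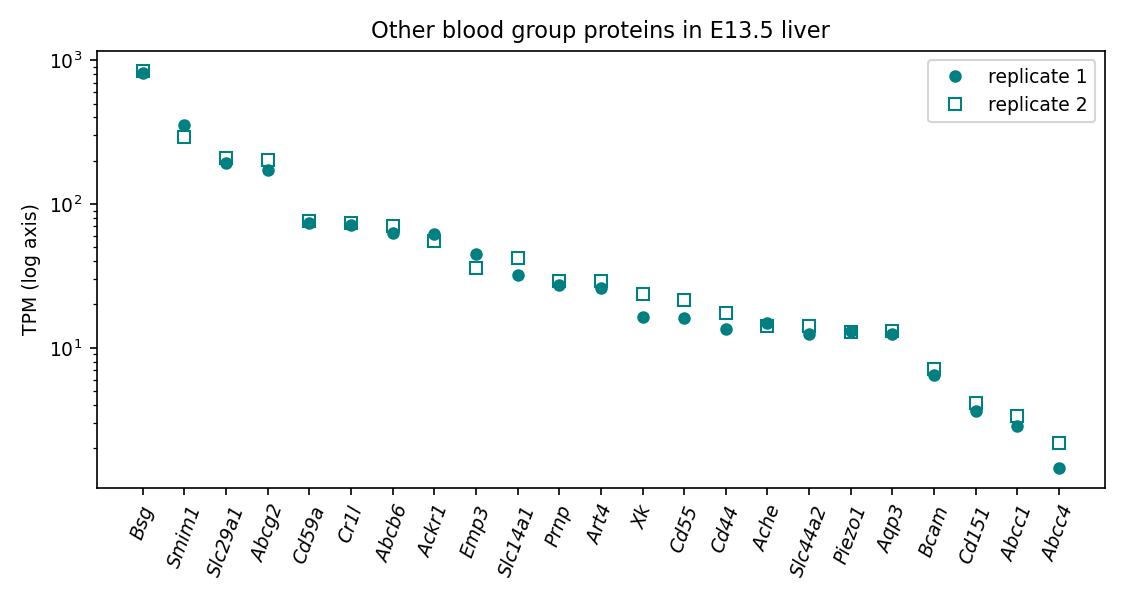
TPM (log axis) of 23 other blood group proteins with at least 1 count in each of the 2 libraries, ordered by mean. The 4 highest drawn, Bsg, Smim1, Slc29a1 and Abcg2, lie above 100 TPM in both libraries, and the lowest, Abcc4, is at 1.45 and 2.17 TPM.

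Enzymes that build the carbohydrate blood groups gave the opposite picture. Of 7 glycosyltransferase genes, 1 reached 1 TPM in both libraries, B3galnt1 with 3.53 and 3.31 TPM, and Gcnt2, the enzyme of the I antigen, had 0.70 and 1.11 TPM. B4galnt2, A4galt, Fut2 and Fut1 were at or below 0.24 TPM. Abo had no count in either library, which allows at most 0.052 TPM. Among other transporters and receptors of the red cell, 13 of 13 reached 1 TPM in both libraries, and 3 reached 100 TPM: the glucose transporter Slc2a1 (268 and 290.4 TPM), the transferrin receptor Tfrc (237 and 289 TPM) and the amino acid transporter Slc43a1 (123 and 159 TPM).

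Of the 18 protein-coding genes that flank the 9, 17 had a value, with a median of 1.43 TPM and a range of 0.0 to 112.4 TPM. The median of 0.01 TPM over all annotated genes is not limited to protein-coding genes, so it is no like measure for them. All 17 were below the surface gene they flank, but so were 93.6% to 99.7% of all annotated genes below each of the 9, so this count says nothing particular to the neighbours. Icam4 lies within a row of related genes, with Icam1 556 bp and Icam5 1478 bp away, and had 25.6-fold ± 1.06 the TPM of Icam1. Llcfc1, 613 bp from Kel, had 0.04 TPM in replicate 1 and no count in replicate 2. The highest neighbours were Svbp beside Ermap (109 and 116 TPM), Tmem50a beside Rhd (74.6 and 82.8 TPM) and Ubtf beside Slc4a1 (62.6 and 72.7 TPM).

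The replicates were compared gene by gene as the log2 ratio of expected counts, replicate 2 over replicate 1, after TMM scaling. None of the 9 genes differed by more than 1.25-fold between the libraries, and 21.0% did among the 16020 genes whose mean count was 10 or more. That share includes genes with far fewer counts than the 9, where counting error is larger. No share matched for counts was computed, so no steadiness of the 9 genes is read from it. Slc4a1 was higher in replicate 2 by 0.15 on the log2 scale (95% counting interval 0.14 to 0.16), as was Ermap (0.15, interval 0.12 to 0.17). Rhag was higher in replicate 2 by 0.09 (interval 0.05 to 0.12). Kel (0.02) and Cd47 (0.01) had intervals that include 0.

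The remaining 4 genes had lower counts in replicate 2. Aqp1 had the largest difference of the 9, -0.28 (interval -0.35 to -0.21), and Icam4 had -0.22 (interval -0.27 to -0.16). Rhd and Gypc both had -0.12. The median of the 9 ratios was 0.01 and the median of their absolute values 0.12, beside 0.00 and 0.15 over all genes with a ratio. The intervals cover counting error only, and no spread between more than 2 samples stands behind them.

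Gene length moved with these ratios. Over all genes the median ratio was -0.15 for 2104 genes under 1000 nt, -0.02 for 8536 genes of 1000 to 3000 nt and 0.08 for 5380 longer genes. Icam4, at 907 nt the shortest of the 9, had -0.22, and Slc4a1, the longest at 4530.2 nt on average by the deposited length, had 0.15. With the median of 20 length bins subtracted, a scale added after the trend was seen, the 9 genes ranged from -0.31 to 0.15, with Icam4 at -0.09, Slc4a1 at 0.05 and Aqp1 at -0.31. The part of length in the ratios was not tested further.

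**Figure D5:**
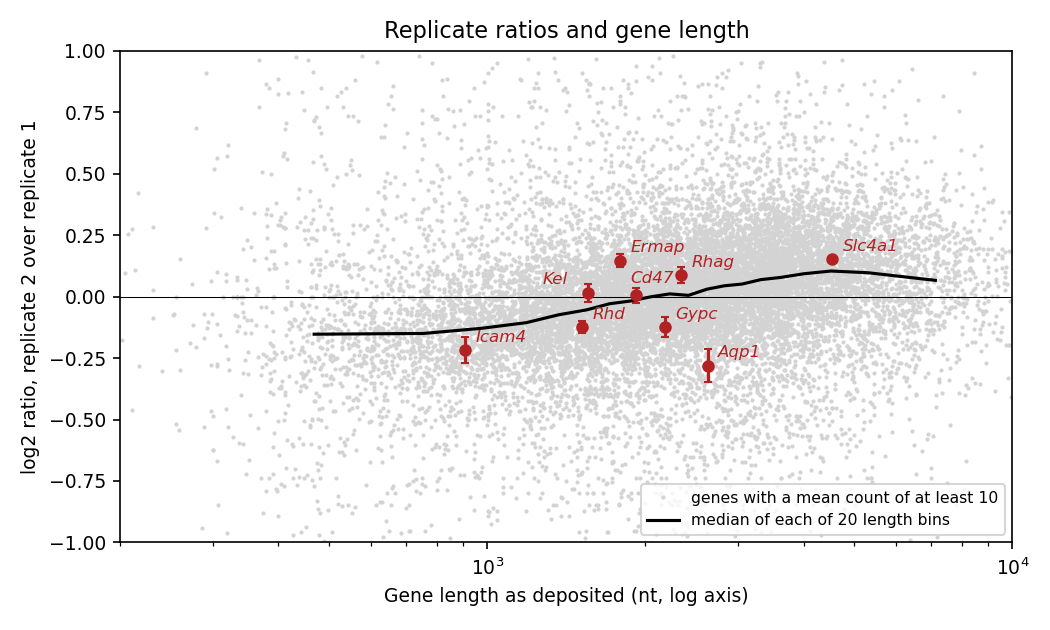
Log2 ratio of expected counts, replicate 2 over replicate 1 after TMM scaling, against the deposited gene length (nt, log axis), for genes averaging 10 or more counts (grey), with the median of 20 length bins (black line) and the 9 surface genes with 95% counting intervals (red). The 9 genes lie within -0.28 to 0.15, and 571 of 16020 genes fall outside the axes.

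Markers of the cells in the tissue moved between the libraries as well. All 6 erythroid markers, Hba-a1, Hbb-bt, Alas2, Gata1, Klf1 and Epor, had lower ratios than 0, with a median of -0.20. Their summed level was 113040 TPM in replicate 2 and 128340 TPM in replicate 1. Most of that sum came from the globin genes Hba-a1 and Hbb-bt. The 3 markers of primitive erythroid cells had a median of -0.54. The fall was not confined to erythroid lists: all 5 megakaryocyte markers were lower (median -0.29). The 3 granulocyte markers were divided, with Elane at -0.50, S100a8 at -0.30 and Mpo at 0.003. Of the 13 other red cell transporters and receptors, 9 were higher in replicate 2 (median 0.08). None of these ratios was corrected for gene length. Of the 9 surface genes, 5 were above 0 and 4 below, close to the share over all genes with a ratio (7927 of 16020 above 0). Aqp1 is also a channel of endothelium and bile ducts. The 7 endothelial markers were all higher in replicate 2 (median 0.21, summed level 78.3 TPM in replicate 2 and 62.5 TPM in replicate 1), and 5 of 6 bile duct markers were (median 0.44), while Aqp1 had its lower value there. The 5 cardiac markers were higher in replicate 2 by a median of 1.98, at a summed level of 88.1 TPM in replicate 2 and 36.4 TPM in replicate 1. The summed levels are in TPM, on which the median log2 ratio of all genes was 0.14, whereas the ratios follow TMM scaling. The part of cell makeup in the levels of the 9 genes was not tested.

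The libraries held 39644066 expected counts in replicate 1 and 38150988 in replicate 2, of which 39182457 and 37432977 fell on annotated genes, and spike-in RNA took 1.16% and 1.88% of all counts. At this depth the 9 genes had between 3205 and 123197 counts each. Markers of the labelled tissue were present: the 5 hepatoblast genes Afp, Alb, Hnf4a, Ttr and Apoa1 summed to 9485 and 11015 TPM in replicates 1 and 2. No defining marker of the hepatoblast, erythroid, macrophage, megakaryocyte, endothelial, bile duct or cardiac lists was at 0 counts. At this depth that is a low bar, which Vsig4 of the macrophage list passed with 6 and 5 counts. Counts above 0 alone therefore identify no cell type.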

How the data were processed

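RNA longer than 200 nt from whole liver of day 13.5 embryos was sequenced in 2 libraries from 10 ng each, per the labels. For each library the authors deposited gene and transcript tables on the build mm10 with GENCODE release M4, per the deposited readme. The aligner, the quantification tool and the strand setting were not given in the sources used here. The expected counts deposited by the authors are estimates that divide reads fitting several features by a model, with a posterior SD in reads. TPM values were scaled by the authors so that genes, spike-ins and transfer RNA entries of a library add up to a fixed total, on an effective length 99 nt shorter than the transcript. The deposited percent of a gene in each transcript was recomputed here from TPM and from counts.

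Symbols and coordinates (GRCm38, the assembly that mm10 names) came from GENCODE release M21 by gene ID, for 42462 of 43346 genes. Levels are the mean and SD of 2 replicates of 1 group, so no p-value was computed. Medians on a log scale used log2(TPM + 0.1). Replicate ratios used expected counts plus 0.5, for genes whose mean count was 10 or more, with TMM factors from edgeR 4.0.16 on rounded counts or, as an alternative, DESeq2 1.42.0 size factors (R 4.3.3). Their 95% intervals, and the floor of 3 counts per library for genes without a count, cover counting error only, because the tables hold no molecular identifiers. The ratio step was tested on simulated data. The remaining work was done with matplotlib 3.10.9, scipy 1.17.1, pandas 2.3.3 and numpy 2.4.6 under Python 3.11.15.

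The 9 genes and the gene lists were chosen with earlier results of these data known. Named were the 9 genes, the 3 highest genes of each list, all genes of the small families, genes below 1 TPM in both libraries where a list had at most 6, and transcripts with at least 5% of the TPM of a gene. Flanking genes and a few further examples were named after their values were seen. Cd99 had no entry under that symbol. A gene that this rule names is counted in its lists but not reported here by itself. Alternatives covered the TPM estimate, thresholds, pseudocount, filters, counts against TPM, globin genes in the total, scaling and each replicate alone.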

Additional observations from a re-analysis of the deposited data

How the results depend on the processing

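With posterior mean TPM, 9 of the 9 genes reached 1 TPM and 8 reached 100 TPM in both libraries, as with the deposited TPM, and 24 of the other blood group proteins reached 1 TPM. With a threshold of 5 TPM the last count was 21. The summed share of the 9 genes, 0.267% of TPM, was 0.595% by expected counts and 0.398% with globin genes left out of the total. The log2 ratio of Slc4a1 over Gypc was 3.47 by expected counts, against 2.37 by TPM, that of Rhd over Rhag 0.72 against 1.38, and that of Kel over Xk 1.76 against 3.51, since counts are not corrected for length. Scaling by spike-in totals gave a median replicate ratio of -0.63 for the 9 genes, against 0.01 by TMM or DESeq2 size factors and 0.07 by total counts, and a median of -0.64 over all genes, with 5 of 9 genes above that median as under TMM. TPM ratios shifted the median of all genes to 0.14, with 6 of the 9 genes above 0 and 3 above that median. With all counts on the longest coding transcript, a scale chosen after the data were seen, the share was 0.223%, the median level 7.16 on the log2 scale against 7.81, and Kel over Xk 2.80. On that scale 7 of 9 genes reached 100 TPM in both libraries. Posterior mean TPM moved none of the 9 levels by as much as the SD between replicates. Leaving out a replicate gives back the value of the other library, which with n = 2 always lies within 1 SD of the mean and so tests nothing: the share was 0.254% to 0.280%, and the log2 ratios ran from 2.24 to 2.51 for Slc4a1 over Gypc, 1.28 to 1.49 for Rhd over Rhag and 3.29 to 3.72 for Kel over Xk. No paired analysis was possible because the libraries form a single group. The main limits are 2 libraries from 1 donor entry, whole tissue, and short transcripts whose assigned reads weigh heavily in TPM.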
